A study of Homo sapiens with 6 samples.

Results

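The loci of 5 genes that drive or restrain the G1 phase of the cell cycle were examined in the human leukemia line ME-1: the kinase gene CDK6, the cyclin genes CCND2 and CCND3, and the inhibitor genes CDKN1A and CDKN1B. Each locus was a fixed hg19 window, and every listed peak that overlapped a window was taken, whatever its height. The windows were chr7 92.18 to 92.52 Mb (CDK6), chr12 4.33 to 4.46 Mb (CCND2), chr6 41.86 to 42.07 Mb (CCND3), chr6 36.59 to 36.71 Mb (CDKN1A) and chr12 12.82 to 12.93 Mb (CDKN1B). They held 366 of the 145457 peaks in the 4 lists. Of these, 24 were RUNX1 sites after AI-10-49 (of 10319 in that list) and 3 were RUNX1 sites in DMSO (of 1701). The others were 159 H3K27ac regions after AI-10-49 (of 66350) and 180 in DMSO (of 67087).

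Passage through G1 is promoted by D-type cyclins, which bind CDK4 or CDK6 and direct these kinases to the retinoblastoma protein. Once phosphorylated, that protein releases E2F transcription factors, which switch on the genes of DNA replication. CDKN1A encodes p21 and CDKN1B encodes p27, proteins that bind cyclin-kinase complexes and inhibit those containing CDK2. p21 is a classical target of p53. Cyclin D2, cyclin D3 and CDK6 are prominent in blood cells, and RUNX1 is a DNA-binding regulator of blood cell development. Acetylation of histone H3 at lysine 27 (H3K27ac) marks active promoters and enhancers.

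ME-1 cells carry inv(16), which fuses CBFB to MYH11, and the product CBFβ-SMMHC binds RUNX1. Cells received AI-10-49, a small molecule that blocks this binding, at 1 µM for 6 h, or DMSO for 6 h. Antibodies to RUNX1 and to H3K27ac were used for chromatin immunoprecipitation and sequencing. The groups were RUNX1 AI-10-49, RUNX1 DMSO, H3K27ac AI-10-49 and H3K27ac DMSO, with 1 library each, so that no difference could be set against a spread between replicates and no p-value is given. The cells of both conditions share the fusion gene, and all libraries come from this single line.

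Heights are given as fragments over the peak's summit per 1000000 reads of the library (written per M reads), recovered from the authors' fold enrichment and −log10 p. Depth was 31.5 M reads (RUNX1 AI-10-49), 33.8 M (RUNX1 DMSO), 37.0 M (H3K27ac AI-10-49) and 35.7 M (H3K27ac DMSO). Intervals in brackets are 95% and cover counting error only (exact Poisson for a height, exact conditional binomial for a ratio). Fragment length was not measured but taken as the shortest peak of each list. So taken, it was greater after AI-10-49, by 1.13 times for RUNX1 and 1.09 times for H3K27ac. A greater length alone raises a summit by about that factor, and ratios are not corrected for it. The fold enrichment and −log10 q given for a peak come from the authors' lists and describe or rank peaks within a list. A region absent from a list was below its threshold, which does not make the signal 0. No hg19 gene annotation was used, so peaks are not placed in exons, introns or UTRs, and a peak named with a window may belong to a neighbouring gene. In RefSeq order the nearest protein-coding neighbours are FAM133B and SAMD9 for CDK6, PARP11 and TIGAR for CCND2, BYSL and TAF8 for CCND3, SRSF3 and RAB44 for CDKN1A, and GPR19 and APOLD1 for CDKN1B.

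RUNX1 recognises a short core motif, so the promoters of the genes were read for it. RefSeq sequences of GRCh38.p14, from 250 bases before to 50 bases after a transcription start, were at hand for 4 of the 5 genes, with 7 starts in all, and CCND2 had none. The 3 starts of CCND3 are shown because this window alone held RUNX1 sites in both conditions, and CDKN1B because its window held the widest acetylated region. Letters run 5′ to 3′ on the gene's strand, and capitals mark the CCAAT box (CCAAT or its complement ATTGG), a common promoter element.
CCND3 start 1: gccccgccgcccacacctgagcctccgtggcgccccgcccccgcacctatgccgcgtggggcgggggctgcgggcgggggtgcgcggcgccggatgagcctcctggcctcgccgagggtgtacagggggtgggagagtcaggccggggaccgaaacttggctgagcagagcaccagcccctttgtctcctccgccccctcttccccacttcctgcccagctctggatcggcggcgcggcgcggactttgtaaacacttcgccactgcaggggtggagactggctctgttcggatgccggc
CCND3 start 2: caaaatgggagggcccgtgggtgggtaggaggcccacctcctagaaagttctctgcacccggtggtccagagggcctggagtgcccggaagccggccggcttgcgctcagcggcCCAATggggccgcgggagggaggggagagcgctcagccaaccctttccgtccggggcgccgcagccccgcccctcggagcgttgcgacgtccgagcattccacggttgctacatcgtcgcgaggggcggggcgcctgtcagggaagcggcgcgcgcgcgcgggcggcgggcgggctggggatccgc
CCND3 start 3: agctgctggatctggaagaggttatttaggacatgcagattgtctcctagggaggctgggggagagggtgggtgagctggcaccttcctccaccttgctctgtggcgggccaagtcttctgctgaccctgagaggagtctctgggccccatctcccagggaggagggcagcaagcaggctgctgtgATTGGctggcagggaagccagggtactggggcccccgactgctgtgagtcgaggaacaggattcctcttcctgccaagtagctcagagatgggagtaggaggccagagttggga
CDKN1B start 1: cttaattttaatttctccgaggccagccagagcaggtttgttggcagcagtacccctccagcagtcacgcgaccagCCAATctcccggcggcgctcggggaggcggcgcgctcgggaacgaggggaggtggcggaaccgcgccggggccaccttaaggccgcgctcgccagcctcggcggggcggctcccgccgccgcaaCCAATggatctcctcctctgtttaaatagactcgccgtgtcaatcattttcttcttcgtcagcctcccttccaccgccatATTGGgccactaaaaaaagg
None of the 7 promoters held the RUNX core, searched as TGTGGT or TGCGGT on both strands, while 19.6% of 35116 promoters of the same length in the table did. The CCAAT box, on both strands, occurred in 34.6% of all promoters, in CCND3 starts 2 and 3 once each and in CDKN1B 3 times. The E-box CACGTG, which MYC can bind, was present in 7.26% of all and once in CDK6 (start 1). The GC box GGGCGG on either strand, present in 44.95% of all, occurred 4 times in the CDKN1A promoter, 5 times at CCND3 start 1, 4 times at CCND3 start 2, 3 times at CDK6 start 1 and once in CDKN1B. These matches describe letters in a short stretch of another genome build, and their position relative to the peaks was not tested.

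RUNX1 was listed at 24 sites after AI-10-49 and at 3 sites in DMSO. The AI-10-49 sites covered 8.58 kb and the DMSO sites 0.999 kb. The sites were unevenly spread, with 11 in the CCND3 window, 6 in CCND2, 3 in CDK6, 2 in CDKN1A and 2 in CDKN1B after AI-10-49, whereas all 3 DMSO sites lay in the CCND3 window. Of the 24 sites, 21 overlapped no DMSO site. Genome-wide 85.1% of AI-10-49 sites had no DMSO counterpart, close to the 87.5% here, so the loci do not stand out in this share. Set against acetylated regions, the windows differed widely. The CCND3 window had 78.6 AI-10-49 RUNX1 sites per 100 DMSO H3K27ac regions, CCND2 had 42.9, CDKN1B 33.3, CDKN1A 15.4 and CDK6 2.26, beside 15.4 for the genome. Numbers of regions were small in all windows but CDK6, and these densities carry no test. They also depend on how acetylation is divided into regions, of which DMSO had 6 in CDKN1B and 133 in CDK6. By acetylated length CDKN1B, with 2 sites over 18.7 kb in DMSO, was below the genome, with 10319 over 68687.7 kb.

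**Figure D1:**
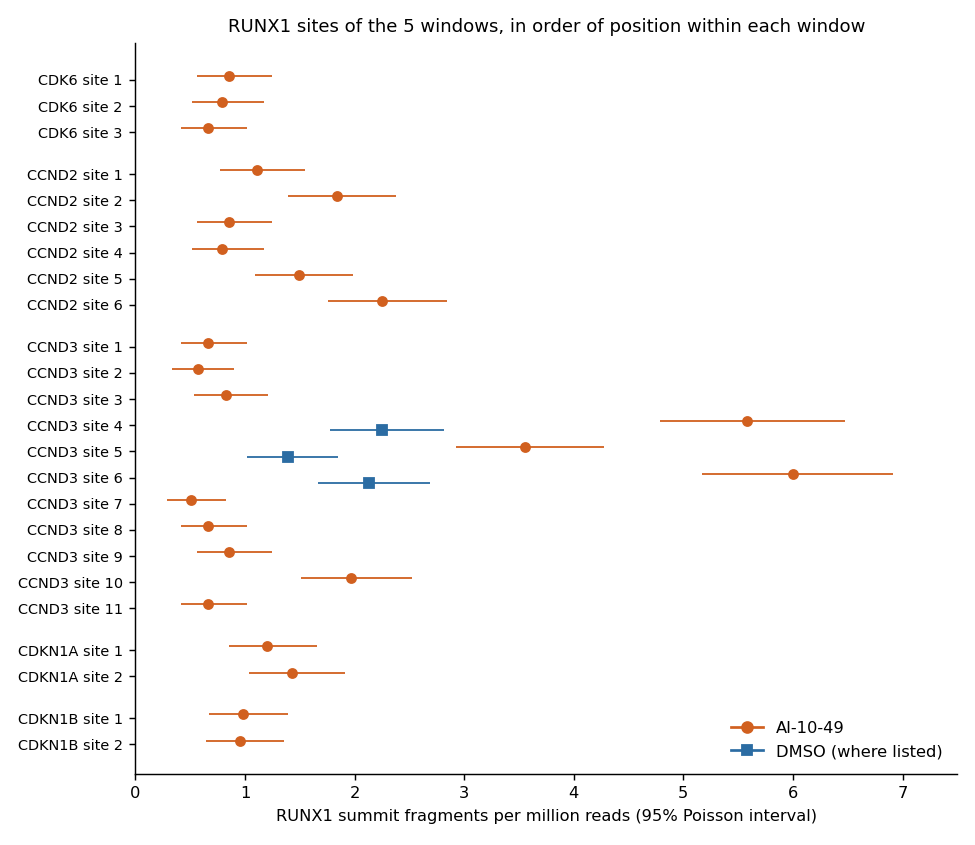
RUNX1 summit fragments per M reads (horizontal axis, 95% Poisson intervals) at each site of the 5 windows, in order of position within each window, for AI-10-49 (circles) and, where listed, DMSO (squares). CCND3 sites 4, 5 and 6 are the 3 that were listed in both conditions, with AI-10-49 values of 3.55 to 6.0 and DMSO values of 1.39 to 2.25.

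CCND3, which encodes cyclin D3, held the strongest RUNX1 binding of the 5 loci. At chr6:41903789-41904421 (intervals of the AI-10-49 list) RUNX1 had 5.58 fragments per M reads (4.79 to 6.47) in AI-10-49 cells and 2.25 (1.77 to 2.82) in DMSO cells, a ratio of 2.48 (1.89 to 3.29). At chr6:41905438-41906382 the values were 3.55 (2.93 to 4.28) in AI-10-49 and 1.39 (1.02 to 1.85) in DMSO, a ratio of 2.55 (1.80 to 3.67). At chr6:41906862-41907619 they were 6.0 (5.17 to 6.91) in AI-10-49 and 2.13 (1.67 to 2.68) in DMSO, a ratio of 2.81 (2.13 to 3.74). At each of the 3 sites AI-10-49 was higher and the counting intervals of the conditions did not meet. A ratio of at least 1.5 was also found at 75.7% of the 1534 stretches of RUNX1 sites listed in both conditions genome-wide, where the median was 2.08 (quartiles 1.52 and 2.95), and 62.3%, 64.9% and 71.5% of them had lower ratios than these 3 sites. The CCND3 ratios were thus of a size common among shared sites, whereas the sites ranked high in both lists. By the authors' −log10 q they ranked 53, 363 and 72 of 10319 in the AI-10-49 list and 21, 208 and 24 of 1701 in the DMSO list. The authors' fold enrichments were 28.7, 21.8 and 20.8 in AI-10-49 and 11.1, 7.58 and 11.5 in DMSO. Local backgrounds were 4.39, 3.55 and 7 scaled fragments in AI-10-49 and 5.93, 5.33 and 5.33 in DMSO. Scaled fragments are fragments multiplied by 0.875 (RUNX1 AI-10-49) or 1 (RUNX1 DMSO), to the smaller of ChIP and input libraries. Heights are not scaled in this way. Summits moved by 37, 86 and 21 bp between the lists, less than a fragment length.

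The remaining 8 RUNX1 sites of the CCND3 window were listed after AI-10-49 only. The strongest, chr6:42013439-42013804, had 62 fragments (1.97 per M reads, 1.51 to 2.52) and an authors' fold enrichment of 14.9, and lay 106 kb from the nearest DMSO site. The other named sites were weaker. At chr6:41996130-41996465 RUNX1 had 27 fragments (0.857 per M reads) and an authors' fold of 5.62. The other 6 sites of the window had 16 to 26 fragments.

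**Figure D2:**
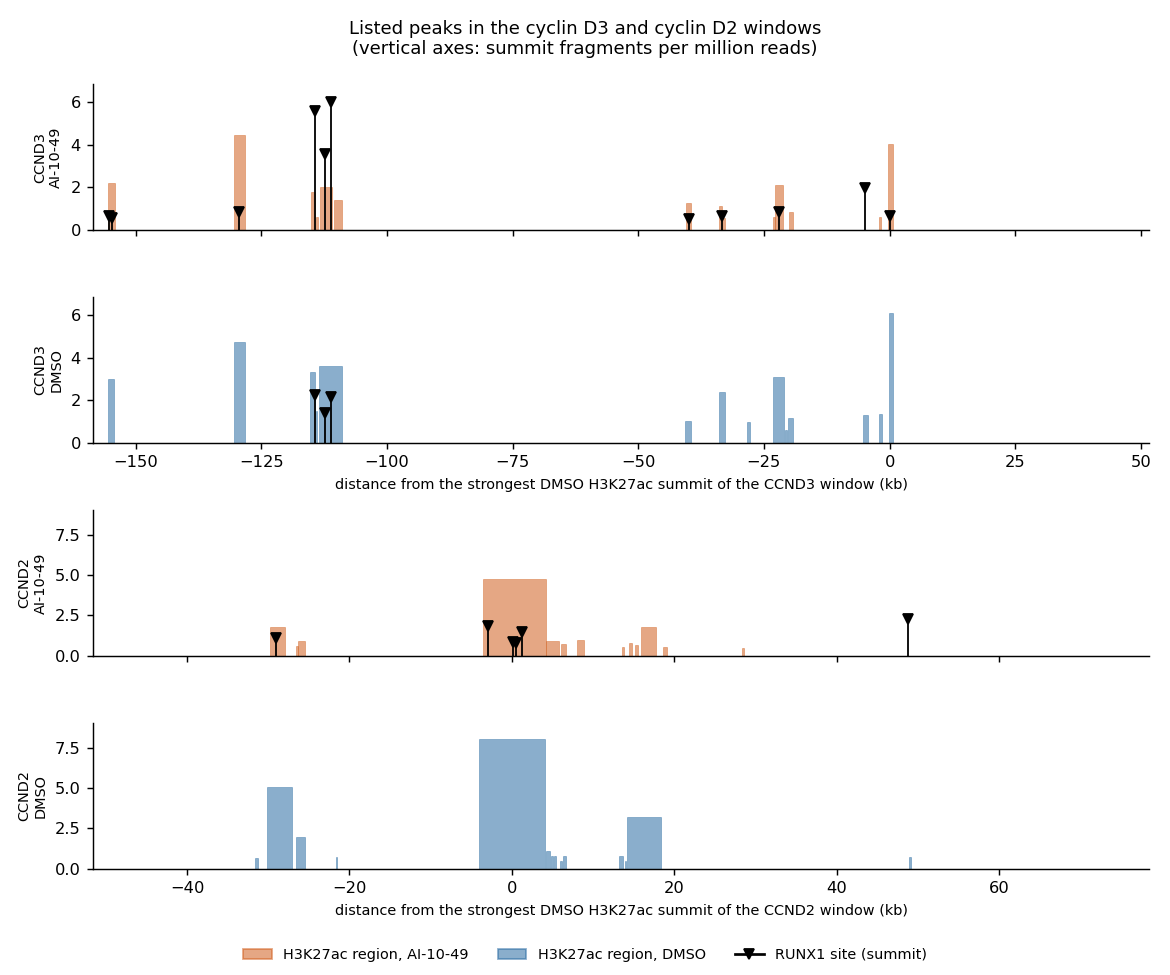
Listed peaks of the CCND3 and CCND2 windows, AI-10-49 above DMSO, with the vertical axis in summit fragments per M reads and the horizontal axis in kb from the strongest DMSO H3K27ac summit of the window; boxes are H3K27ac regions and triangles are RUNX1 summits. The cluster of 3 RUNX1 sites in CCND3 is taller after AI-10-49 (3.55 to 6.0) than in DMSO (1.39 to 2.25), while the acetylated boxes beside it are lower.

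Acetylation around the 3 shared CCND3 sites was lower after AI-10-49. For this comparison, overlapping regions of the H3K27ac lists were joined into stretches, and each stretch took the highest summit of each list. The stretch chr6:41903038-41904040 had 1.76 fragments per M reads (1.36 to 2.24) in AI-10-49 and 3.31 (2.74 to 3.96) in DMSO, a ratio of 0.532 (0.386 to 0.725). The stretch chr6:41904242-41904726 had 0.622 (0.394 to 0.933) in AI-10-49 and 1.48 (1.11 to 1.94) in DMSO, a ratio of 0.419 (0.245 to 0.695). The widest, chr6:41904895-41909508, had 2.00 (1.57 to 2.51) in AI-10-49 and 3.59 (2.99 to 4.26) in DMSO, a ratio of 0.558 (0.413 to 0.748). All 3 ratio intervals lay below 1, so that RUNX1 was higher at the sites and H3K27ac lower in the stretches that they overlapped. The summits compared were not at the same position. In AI-10-49 the summit of the nearest H3K27ac region lay 318, 294 and 994 bp from the 3 RUNX1 summits. The ratios of the 3 stretches stayed below 1 with the authors' fold enrichments (0.397, 0.443 and 0.602). The other alternatives multiply every ratio by the same factor and are no separate check. Division by the fragment length ratio, which can only lower a ratio, gave 0.486, 0.383 and 0.51. Scaling by the smaller of ChIP and input reads gave 0.679, 0.535 and 0.712. A lower value was widespread, however. Of 41648 stretches listed in both conditions 33.0% were lower by at least 1.5-fold after AI-10-49 and 5.29% higher, and among the 11996 with at least 100 fragments in either condition 53.0% were lower and 0.392% higher, with a median ratio of 0.652. Scaling by the smaller of ChIP and input reads divides the ChIP fragments by 27.6 M reads (AI-10-49) and 34.0 M (DMSO), not by ChIP depth. It multiplies every ratio by the same factor. The genome median was then 1.003 in place of 0.785, so ratios are also set against the genome median.

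The first shared RUNX1 site had its summit in a gap between listed acetylated regions. Its AI-10-49 summit lay 47 bp outside the nearest AI-10-49 H3K27ac region and 23 bp outside the nearest DMSO region, between the stretches that end at chr6:41904040 and begin at chr6:41904242. Its DMSO summit lay 60 bp outside the nearest DMSO region. The summits of the other shared sites were inside H3K27ac regions of both conditions. The widest stretch held 2 H3K27ac regions after AI-10-49, against 1 region of 4.61 kb in DMSO.

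In the whole CCND3 window 6 of 11 stretches listed in both conditions were lower by at least 1.5-fold after AI-10-49 (33.0% genome-wide). None was higher by that much (5.29% genome-wide). By the authors' fold enrichments 4 were lower and 3 higher, and when scaled by the smaller of ChIP and input reads 3 were lower and 1 higher. The median ratio of the window was 0.66, against 0.785 for the genome. The window's other named stretches were chr6:42016197-42016801 with a ratio of 0.453 (0.263 to 0.758) and chr6:41984376-41985724 with 0.477 (0.321 to 0.698) at the low end, and chr6:41862815-41864352 with 0.730 (0.540 to 0.984) near the high end. By the authors' fold enrichments these 3 were 1.00, 0.986 and 1.37, so that they were level or higher. The tallest DMSO region lay in chr6:42018181-42019119, with 4.03 (3.41 to 4.73) in AI-10-49 and 6.11 (5.32 to 6.97) in DMSO, a ratio of 0.66 (0.532 to 0.816) that turned to 1.68 by the authors' fold enrichments. By contrast chr6:41888032-41890171 was nearly level, with 4.46 (3.81 to 5.20) in AI-10-49 and 4.74 (4.05 to 5.51) in DMSO, a ratio of 0.942 (0.756 to 1.17), or 2.61 by the authors' fold enrichments, that exceeded those of 92.6% of stretches with at least 100 fragments. The stretch with the highest ratio, chr6:41977764-41978968, had 1.24 (0.911 to 1.66) in AI-10-49 and 1.04 (0.73 to 1.43) in DMSO, a ratio of 1.20 (0.761 to 1.90), or 2.44 by fold enrichment. Of the 14 DMSO regions 3 had no AI-10-49 counterpart, where 29.0% had none genome-wide. One of these, chr6:42013014-42014173 (47 fragments in DMSO, 1.32 per M reads), is where the strongest AI-10-49-only RUNX1 site of the window lay. No AI-10-49 H3K27ac region was within 2.06 kb of it, where the lowest region of that list had 12 fragments.

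CCND2, which encodes cyclin D2, had 6 RUNX1 sites after AI-10-49 and none in DMSO. The strongest, chr12:4430015-4430460, had 71 fragments (2.25 per M reads, 1.76 to 2.84) and an authors' fold of 14.4. It was followed by chr12:4378456-4378826 with 58 fragments (1.84 per M reads, 1.4 to 2.38) and by chr12:4382717-4382986 with 47 fragments (1.49 per M reads, 1.10 to 1.98). The site chr12:4352316-4352675 had 35 fragments (1.11 per M reads, 0.773 to 1.54) and chr12:4381942-4382179 had 25 (0.793 per M reads, 0.513 to 1.17). The nearest DMSO site was 1114 to 1192 kb away from each. For comparison, the DMSO list had a median of 0.918 fragments per M reads and a lowest value of 0.326 (11 fragments), so heights such as these did occur in the DMSO list.

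The strong acetylated stretches of CCND2 had fewer fragments after AI-10-49. The main stretch, chr12:4377539-4385693, had 4.76 fragments per M reads (4.08 to 5.52) in AI-10-49 and 8.07 (7.16 to 9.06) in DMSO, a ratio of 0.59 (0.486 to 0.714). By the authors' fold enrichments the ratio of this stretch was 0.941, which is nearly level, and it was 0.753 when scaled by the smaller of ChIP and input reads. It contained 4 of the AI-10-49 RUNX1 sites, and its highest summit lay 1621 bp apart between the conditions. The stretch chr12:4351352-4354449, which contained 1 RUNX1 site, had 1.81 (1.404 to 2.30) in AI-10-49 and 5.04 (4.33 to 5.84) in DMSO. Its ratio of 0.359 (0.267 to 0.478) was the lowest of all 5 windows, and 3.48% of the genome's stretches with at least 100 fragments had a lower one. It was 0.528 by the authors' fold enrichments, so this stretch was lower by that measure too. The fragment length correction, which can only lower a ratio, gave 0.328. Scaling by the smaller of ChIP and input reads gave 0.458. Next to it, chr12:4354898-4356068 had 0.892 (0.614 to 1.25) in AI-10-49 and 1.961 (1.53 to 2.48) in DMSO, a ratio of 0.455. At chr12:4395687-4399947 the values were 1.76 (1.36 to 2.24) in AI-10-49 and 3.22 (2.66 to 3.87) in DMSO, with 3 AI-10-49 regions in place of 1 DMSO region. In all, 5 of 7 stretches of the window in both lists were lower by at least 1.5-fold and none was higher, beside 33.0% and 5.29% genome-wide. Ratio intervals lay below 1 at 4 of the 7, a count that was not made genome-wide. By the authors' fold enrichments 3 of the 7 were lower by at least 1.5-fold, and when scaled by the smaller of ChIP and input reads 2 were. The ratio was 0.545 (0.396 to 0.746) at chr12:4395687-4399947, where it turned to 1.124 by the authors' fold enrichments, and 0.655 (0.346 to 1.21) at chr12:4394772-4395330. The highest ratios were 0.929 (0.521 to 1.65, or 1.36 by fold enrichment) at chr12:4387521-4388214 and 0.841 (0.515 to 1.37) at chr12:4385718-4387374.

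The tallest CCND2 RUNX1 site lay away from strong acetylation. Its summit was 20.1 kb from the nearest AI-10-49 H3K27ac region and 128 bp outside a weak DMSO region (25 fragments, 0.70 per M reads). By the authors' −log10 q, the leading region listed after AI-10-49 only was chr12:4389501-4390459 (36 fragments, 0.973 per M reads, 0.682 to 1.35), and the leading one in DMSO only was chr12:4349873-4350230 (24 fragments, 0.672 per M reads, 0.431 to 1.00).

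CDK6, the kinase partner of the D-type cyclins, had the largest acetylated share of the 5 windows and the fewest RUNX1 sites per acetylated region. H3K27ac covered 109.7 kb in AI-10-49 (116 regions) and 108.6 kb in DMSO (133 regions), or 32.3% and 31.9% of the 340 kb window, against 7.12% to 16.7% (AI-10-49) and 8.87% to 17.0% (DMSO) in the other windows. Most of its regions were small, with a median width of 474 bp in AI-10-49 and 418 bp in DMSO (522 and 551 bp for the whole lists) and a median of 21 and 18 fragments (28 and 29 for the whole lists). The 3 RUNX1 sites, all after AI-10-49 only, were weak. They were chr7:92262811-92263036 (27 fragments, 0.857 per M reads, 0.565 to 1.25), chr7:92384409-92384793 (25 fragments, 0.793 per M reads, 0.513 to 1.17) and chr7:92463180-92463357 (21 fragments, 0.666 per M reads, 0.412 to 1.02). Each was below the DMSO list's median height, and the nearest DMSO site was 500 to 700 kb away.

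Its 3 large acetylated stretches had ratios of 0.778 to 0.860. The widest stretch, chr7:92457524-92470452, had 6.49 fragments per M reads (5.69 to 7.36) in AI-10-49 and 8.10 (7.19 to 9.09) in DMSO, a ratio of 0.801 (0.672 to 0.954). Its region was 12.6 kb wide in AI-10-49 and 11.8 kb in DMSO, ranks 56 and 80 by width in the lists. The 2 heights were at different places, chr7:92466209 in AI-10-49 and chr7:92464531 in DMSO. The stretch chr7:92382789-92390358 had 5.52 (4.78 to 6.33) in AI-10-49 and 6.42 (5.61 to 7.30) in DMSO, and chr7:92218086-92219933 had 4.38 (3.73 to 5.11) in AI-10-49 and 5.63 (4.88 to 6.47) in DMSO, ratios of 0.860 (0.708 to 1.04) and 0.778 (0.628 to 0.961). Of these 3, the only CDK6 stretches with at least 100 fragments, 2 had intervals below 1 and none passed 1.5-fold, and 75.03% to 86.2% of such stretches genome-wide had lower ratios. By the authors' fold enrichments the ratios of the 3 were 1.41, 1.05 and 1.19, so their direction depends on the measure. Scaling by the smaller of ChIP and input reads, the same factor for every stretch, gave 1.02, 1.10 and 0.993. The widest stretch and chr7:92382789-92390358 held 1 RUNX1 site each, and the second of these had 3 AI-10-49 regions in place of 1 DMSO region. A broad group near chr7:92267479-92277369 had 2.46 (1.98 to 3.02) in AI-10-49 and 2.52 (2.03 to 3.10) in DMSO (a ratio of 0.976, or 1.43 by fold enrichment), with 2 AI-10-49 regions in place of 5 DMSO regions. These highest summits lay 2034 bp apart. Beside the AI-10-49 summit (chr7:92271499) another DMSO region had its summit (chr7:92271498), with 2.21 fragments per M reads.

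The small CDK6 stretches had a higher median ratio than small stretches of the genome. Among its 65 stretches with under 100 fragments in both conditions the median ratio was 1.13, where 29652 such stretches of the genome had 0.877. Of the 65, 13 were higher by at least 1.5-fold after AI-10-49 (7.27% genome-wide) and 3 were lower (24.9% genome-wide). The sets were not matched for height, and CDK6 regions had fewer fragments than the lists as a whole. Genome ratios differed with height, with a median of 0.652 at 100 fragments or more. The lowest listed heights also differed, at 0.324 (AI-10-49) and 0.252 (DMSO) fragments per M reads. Whether height accounts for the contrast was not tested. No single one of the 13 had an interval above 1: the highest ratio, 1.86 (0.914 to 3.95), was at chr7:92277431-92278093, with 0.676 fragments per M reads (25 fragments) in AI-10-49 and 0.364 (13 fragments) in DMSO. The lowest ratio of the window, 0.497 (0.260 to 0.918), was at chr7:92478242-92478849, with 0.46 (17 fragments) in AI-10-49 and 0.925 (33 fragments) in DMSO. The next highest ratios were 1.79 (0.902 to 3.71) at chr7:92434922-92435327 and 1.78 (0.872 to 3.81) at chr7:92281734-92282573, and the next lowest 0.622 (0.376 to 1.01, or 0.269 by the authors' fold enrichments) at chr7:92381241-92382749 and 0.654 (0.357 to 1.17) at chr7:92286988-92288667. Over all 68 CDK6 stretches the median was 1.44 times the genome median, and 1.21 times by the authors' fold enrichments. The count of higher against lower stretches depends on the measure. The fragment length correction and the scaling by the smaller of ChIP and input reads each multiply every ratio by the same factor. Of the 68, 13 were higher by at least 1.5-fold and 3 lower in fragments per M reads, 8 higher and 10 lower by the authors' fold enrichments, 7 higher and 6 lower after the fragment length correction, and 28 higher and 1 lower when scaled by the smaller of ChIP and input reads. Regions of this size are near the threshold of the lists, and 27 AI-10-49 regions and 37 DMSO regions of the window had no counterpart. The 27 were 23.3% of the AI-10-49 regions (21.0% genome-wide) and the 37 were 27.8% of the DMSO regions (29.0% genome-wide). By −log10 q the leading regions without a counterpart were chr7:92423731-92424266 after AI-10-49 (25 fragments) and chr7:92373681-92374189 in DMSO (23 fragments).

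**Figure D3:**
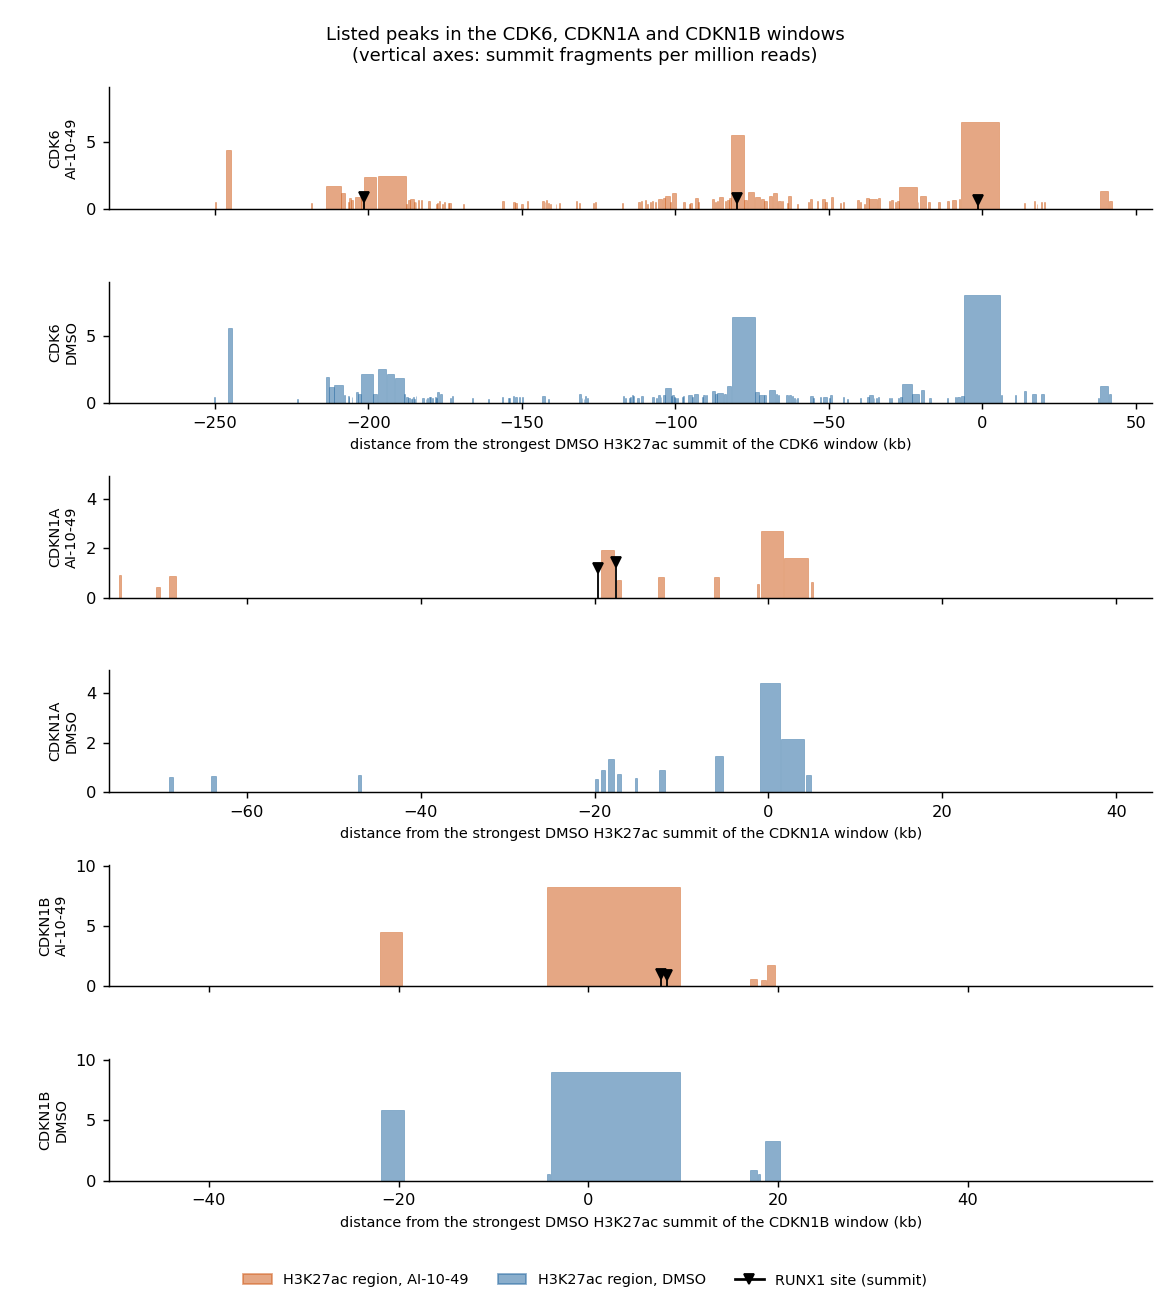
Listed peaks of the CDK6, CDKN1A and CDKN1B windows, AI-10-49 above DMSO, with the vertical axis in summit fragments per M reads and the horizontal axis in kb from the strongest DMSO H3K27ac summit of the window; boxes are H3K27ac regions and triangles are RUNX1 summits. RUNX1 appears in the AI-10-49 tracks only, at 0.666 to 1.43 fragments per M reads, and the tallest acetylated boxes are at 6.49 (AI-10-49) and 8.10 (DMSO) for CDK6 and at 8.25 (AI-10-49) and 8.99 (DMSO) for CDKN1B.

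CDKN1A, the gene of p21, had 2 RUNX1 sites after AI-10-49 and none in DMSO. The stronger, chr6:36648012-36648456, had 45 fragments (1.43 per M reads, 1.04 to 1.91) and an authors' fold of 8.07. The other, chr6:36646143-36646406, had 38 fragments (1.21 per M reads, 0.853 to 1.65) and a fold of 4.28. Its local background was 7 scaled fragments, against 4 at the first. They lay 274 and 276 kb from the nearest DMSO site. The acetylated stretch between them, chr6:36646525-36648106, which the stronger site overlapped, had 1.92 (1.499 to 2.42) in AI-10-49 and 1.32 (0.968 to 1.75) in DMSO. Its ratio of 1.46 had an interval of 0.994 to 2.15, which just reached 1, and 93.9% of stretches genome-wide had a lower ratio. It was 1.77 by the authors' fold enrichments, 1.33 after the fragment length correction and 1.86 when scaled by the smaller of ChIP and input reads. It was 1 region in AI-10-49 and 2 in DMSO.

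The other CDKN1A stretches varied in direction. The strongest, chr6:36664892-36670930, had no RUNX1 site and had 2.70 (2.2 to 3.29) in AI-10-49 and 4.40 (3.74 to 5.14) in DMSO, a ratio of 0.615 (0.473 to 0.795). At chr6:36659556-36660632 the values were 0.838 (0.569 to 1.19) in AI-10-49 and 1.46 (1.09 to 1.91) in DMSO, a ratio of 0.575 (0.356 to 0.915). The stretches chr6:36648380-36648901 and chr6:36653190-36653899 had ratios of 1.00 (0.563 to 1.79) and 0.935 (0.552 to 1.58, or 1.04 by fold enrichment), and chr6:36596899-36597716 had 1.45 (0.819 to 2.61). By −log10 q the leading region of 1 list only was chr6:36591103-36591408 after AI-10-49 (34 fragments, 0.919 per M reads) and chr6:36618617-36618928 in DMSO (24 fragments, 0.672 per M reads).

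CDKN1B, the gene of p27, lay in a window with the widest acetylated region of the 5 loci. The region measured 14.1 kb in AI-10-49, rank 34 of 66350 by width, and 13.6 kb in DMSO, rank 53 of 67087. Its summit had 8.25 fragments per M reads (7.35 to 9.23) in AI-10-49 and 8.99 (8.04 to 10.03) in DMSO, a ratio of 0.917 (0.781 to 1.08) for the stretch chr12:12866123-12880197. The ratio of that stretch was 1.49 by the authors' fold enrichments, so its direction depends on the measure. When scaled by the smaller of ChIP and input reads it was 1.17. The highest summits of the stretch lay 691 bp apart between the conditions. The ratio of 0.917 exceeded those of 91.0% of stretches with at least 100 fragments. Both RUNX1 sites of the window lay inside this region and were listed after AI-10-49 only. The first, chr12:12878057-12878346, had 31 fragments (0.984 per M reads, 0.668 to 1.396) and a fold of 5.75. The second, chr12:12878646-12878905, had 30 (0.952 per M reads, 0.642 to 1.36) but a fold of 2.48 over a local background of 10 scaled fragments. By −log10 q the second ranked 10277 of 10319. They lay 8.34 and 8.99 kb from the H3K27ac summit in AI-10-49. Of the flanking stretches, chr12:12848616-12851049 had 4.52 (3.86 to 5.25) in AI-10-49 and 5.88 (5.11 to 6.74) in DMSO, a ratio of 0.767 (0.622 to 0.945) that turned to 1.29 by the authors' fold enrichments. The stretch chr12:12888729-12890692 had 1.78 (1.38 to 2.27) in AI-10-49 and 3.25 (2.69 to 3.90) in DMSO, a ratio of 0.549 (0.400 to 0.749). The last, chr12:12887587-12888337, had a ratio of 0.685 (0.378 to 1.22). The 1 region without a counterpart in the window, chr12:12888383-12888600 in DMSO (20 fragments), lay 0.052 kb from an AI-10-49 region.

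Across the 5 windows 96 stretches were listed in both conditions, and their ratios differed by locus. Median ratios of AI-10-49 over DMSO were 0.59 for CCND2 (7 stretches), 0.66 for CCND3 (11), 0.726 for CDKN1B (4), 0.968 for CDKN1A (6) and 1.13 for CDK6 (68), around a genome median of 0.785 (quartiles 0.61 and 1.03). CCND2, CCND3 and CDKN1B were below it and CDK6 and CDKN1A above it. This order did not hold for the authors' fold enrichments, where the medians were 0.941 for CCND2, 0.986 for CCND3, 1.08 for CDKN1B, 1.11 for CDKN1A and 1.06 for CDK6, all above the genome's 0.878. Of the 11 CCND3 stretches 9 lay below the genome median in fragments per M reads and 4 in fold enrichment. The 16 stretches with at least 100 fragments had a median of 0.664 and the genome's 0.652. By at least 1.5-fold 8 of the 16 were lower and none higher, beside 53.0% and 0.392% of such stretches genome-wide. The 5 loci thus did not stand out in this share. Of the 96, 19 had ratio intervals below 1 and 0 above 1, and 8 of the 19 were in the CCND3 window. Such intervals were not counted genome-wide, where the median ratio of 0.785 was itself below 1. These counts are therefore not read as a trait of the 5 loci. Scaling by the smaller of ChIP and input reads multiplies every ratio by the same factor. With it 10 intervals lay below 1 and 15 above, 13 of the 15 in the CDK6 window. Under it 5 CCND3 and 4 CCND2 stretches still had intervals below 1. The 17 stretches with an AI-10-49 RUNX1 site had a median ratio of 0.73 and the 79 without had 1.04, beside 0.701 and 0.820 for the genome. Of the 79, however, 65 were in the CDK6 window. Among stretches with at least 100 fragments the medians were 0.669 with RUNX1 (11) and 0.615 without (5), beside 0.675 and 0.632 for the genome.

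**Figure D4:**
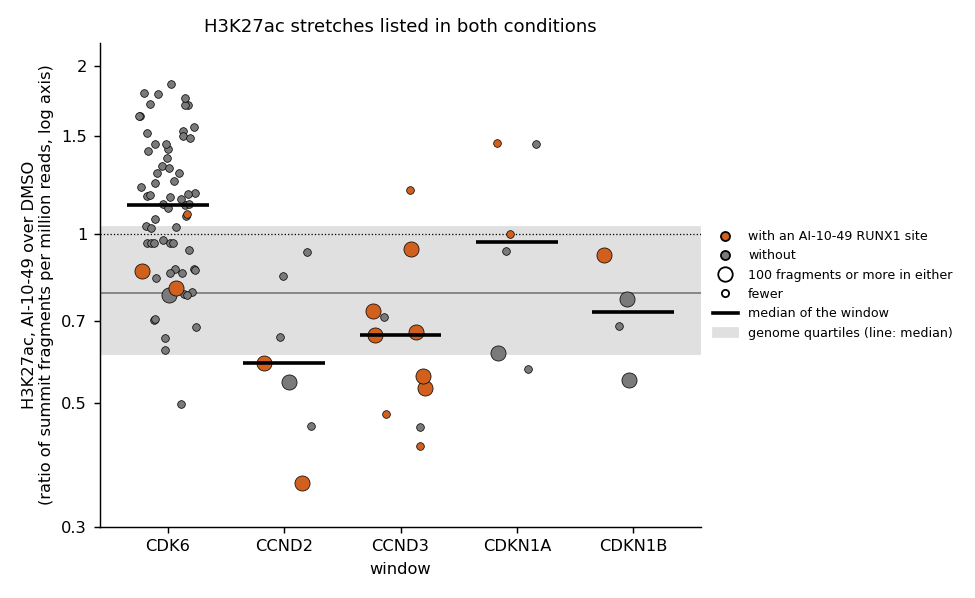
Ratio of H3K27ac summit fragments per M reads, AI-10-49 over DMSO (log axis), for each stretch listed in both conditions, by window; large points have at least 100 fragments in either condition, orange points hold an AI-10-49 RUNX1 site, bars are window medians and the grey band and line are the genome's quartiles and median. CCND2 and CCND3 medians (0.59 and 0.66) lie below the genome's 0.785 (by the authors' fold enrichments, not drawn, they lie above it), and the many small CDK6 points lie around a median of 1.13.

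Of the 24 AI-10-49 RUNX1 sites, 21 overlapped H3K27ac regions of the same condition (87.5%, exact Clopper-Pearson interval 67.6% to 97.3%), beside 86.1% genome-wide. All 24 lay at least partly in regions acetylated in DMSO cells (100%, interval 85.8% to 100%), beside 89.8% genome-wide. The 3 without an AI-10-49 region were the strongest sites outside the shared cluster in CCND2 and CCND3, with 71 and 62 fragments, and the weaker CDKN1A site with 38. Counted by summit, 18 of 24 lay inside an AI-10-49 region and 20 inside a DMSO region. The 21 sites listed after AI-10-49 only had 0.508 to 2.25 fragments per M reads with a median of 0.857, and 9 exceeded the DMSO list's median of 0.918.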

How the data were processed

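RUNX1 and H3K27ac chromatin immunoprecipitation of ME-1 cells gave 4 peak lists, and the 2 input libraries were not used here directly. Tools listed in the submitters' processing notes, with no roles, are MACS2 2.1.0, Bowtie2 2.1.0, CASAVA 1.4, Picard 1.96 and SAMtools 1.3, and the build is hg19. Each deposited list belongs to 1 sample. Which input went with which call was not used here. The authors deposited for each peak a fold enrichment (a ratio over local background), a −log10 p-value and a −log10 q-value. The deposited score was not used.

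Fragment numbers at summits were solved from fold enrichment and −log10 p as whole numbers (100% of peaks in each list within 0.003 of −log10 p), with a genome size of 2700000000 bp assumed for read totals and the shortest peak as fragment length (169, 149, 210 and 192 bp for RUNX1 AI-10-49, RUNX1 DMSO, H3K27ac AI-10-49 and H3K27ac DMSO). On simulated peaks 100% of numbers were exact for each list (1500, 1484, 1482 and 1446 peaks). These peaks were made from the solved numbers with the same formulas. They check the solving step only and cannot show whether the formulas match the authors' peak caller. Peaks overlapping by 1 bp counted as shared. A ratio past 1.5-fold, or 100 fragments for strong stretches, is a description, since each condition had 1 library.

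The genes, windows and named regions were chosen with earlier results of these data known. Per window, named regions were all DMSO RUNX1 sites, the 5 AI-10-49 sites with the highest −log10 q, the widest and tallest H3K27ac regions, the 1-list-only region with the highest −log10 q, and the 3 lowest and 3 highest ratios with at least 20 fragments. Other stretches were named after their values were seen, such as the strong CDK6 stretches. Other G1 genes were planned for an hg19 annotation and were not analysed here. Python 3.11.15, numpy 2.4.6, pandas 2.3.3, scipy 1.17.1, matplotlib 3.10.9 and bedtools 2.31.1 were used. Alternatives for overlap, threshold, unit, pairing and depth were tried.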

Additional observations from a re-analysis of the deposited data

How the results depend on the processing

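Leaving out the CDK6 window, and giving each scaling by window and by stretch, were chosen after seeing the data, and the cause of a shift was not tested except as given. Among 43 alternative values, 30 kept to the 95% interval of their share or to 1.5 times their count or ratio, 11 went beyond and 2 crossed 1. This tally does not measure stability, since the intervals are wide for few sites. A fall from 3 of 3 shared DMSO RUNX1 sites to 1 of 3 still counted as kept. The median H3K27ac ratio of the windows (0.965) was 1.03 with the authors' fold enrichments and 1.23 when scaled by the smaller of ChIP and input reads, where the genome median was 0.878 and 1.003 in place of 0.785. Divided by the fragment length ratio it was 0.882 (genome 0.718). Without CDK6 it was 0.664, below the genome's 0.785, so the side of the genome median rests on that window. By construction, a −log10 q of at least 10 left 11 AI-10-49 RUNX1 sites and 45 (AI-10-49) and 64 (DMSO) H3K27ac regions, and at least 5 left 99 AI-10-49 regions. Without CDK6 there were 43 (AI-10-49) and 47 (DMSO) regions. Shares of H3K27ac regions in both lists (79.2% of AI-10-49 and 72.8% of DMSO regions) came to 39.6% and 35% with 50% of both intervals required, and to 91.8% and 87.2% within 1 kb, and the AI-10-49 share was 86.0% without CDK6. The 3 DMSO RUNX1 sites stayed at both stricter thresholds, but with 50% of both intervals required 1 of 24 AI-10-49 sites (4.17%) and 1 of 3 DMSO sites (33.3%) were shared, in place of 3 in each list, and the median of the 3 RUNX1 ratios lay between 2.25 and 2.92. The small regions rest on few fragments, with medians of 21 (AI-10-49) and 18 (DMSO) for CDK6 regions, and whether depth limits them was not tested. No paired analysis was possible because the conditions had 1 library each.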
